A study of Homo sapiens with 12 samples.

Results

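Macrophage scavenger receptors are surface and lysosomal proteins that take up modified lipoproteins, haemoglobin complexes, glycoproteins, microbes and dying cells. The 8 receptor genes described here, CD163, MSR1, MARCO, MRC1, CD68, STAB1, COLEC12 and SCARB1, were the rows of the deposited count table whose Ensembl identifier carries 1 of these symbols. They were 8 of 36601 genes, and all 8 passed the filter on low counts. Scavenger receptors fall into structural classes that share ligands rather than ancestry. MSR1, MARCO and COLEC12 are collagen-stalked class A receptors, CD163 has repeated cysteine-rich domains, MRC1 is a C-type lectin, STAB1 is a large multidomain receptor, CD68 is a lysosomal membrane glycoprotein, and SCARB1 binds high-density lipoprotein. In human tissue CD163, MSR1, MARCO, MRC1 and CD68 are used as macrophage markers, whereas STAB1, COLEC12 and SCARB1 are also made by endothelial, stromal or liver cells.

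RNA was measured in bulk during the differentiation of H9, an established human embryonic stem cell line of wild-type genotype, in a protocol aimed at γδ T cells. The groups were 3 libraries at day 10, labelled haematopoietic progenitors, 3 at day 15 and 3 at day 20, both labelled T progenitors, and 3 at day 25, labelled mature γδ T cells. Stem cells had been kept on mouse embryonic fibroblast feeders, and all groups had passed through CHIR99021, BMP4, Activin A and the Rock inhibitor Y-27632, then VEGF and bFGF, then Flt3L, IL-7, SCF and SB431542. Libraries of days 15, 20 and 25 had in addition been cultured from day 10 in MEM-α with serum, GlutaMAX, MAP, DLL4 (a Notch ligand), SCF, Flt3L and IL-7, and none of these media had an added CSF1 or GM-CSF per the labels. No sorting step is given for the RNA, so each library is treated as the whole culture.

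Library totals lay between 27026196 and 39811230 counts. Levels are in CPM, the usual depth-scaled count unit, on library sizes adjusted by edgeR's TMM factors, and a gene was called at a Benjamini-Hochberg adjusted p under 0.05 in edgeR's quasi-likelihood test over 20183 genes. The labels do not say whether the 3 libraries of a day were separate cultures, so p-values measure the spread between these libraries only. In bulk RNA, fewer cells of a type and less RNA per cell cannot be told apart. CD3E, a chain of the T-cell receptor complex, was at or near 0 at each day, against the labels of days 15 to 25. The T-cell genes CD3D, CD3G, TRAC and LCK did not pass the filter. The sum of 10 T-cell markers, given below, reached 26.6 to 29.5 CPM at day 20. CD3E averaged 0 CPM on day 10, 0 at day 15, 0.325 ± 0.0411 at day 20 and 0.168 ± 0.105 at day 25 (SD, n = 3). CSF1R, the macrophage colony-stimulating factor receptor, averaged 24.8 ± 1.53, 78.0 ± 5.49, 734 ± 11.7 and 1374 ± 15.5 CPM on the same days.

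All 8 receptor genes differed among the 4 days in the joint test, as did 90.5% of all genes tested. The 8 genes followed 3 patterns. CD163, MSR1, MARCO, CD68 and STAB1 were lowest at day 10 and highest at day 25, with an increase at every step, although the last step of CD163 was small and turned to -0.01 on the log2 scale with library-size scaling. MRC1 and COLEC12 were highest at day 20 and lower again at day 25. SCARB1 was lowest at day 15. For each gene the libraries of any 2 days did not overlap, and every pair of neighbours in the order of levels was called. Among all genes tested, the libraries did not overlap for 74.3% at day 15 against day 10, 78.3% at day 20 against day 15 and 57% at day 25 against day 20. The share was 77.3% at day 25 against day 10, 73.9% at day 20 against day 10 and 79.1% at day 25 against day 15.

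**Figure D1:**
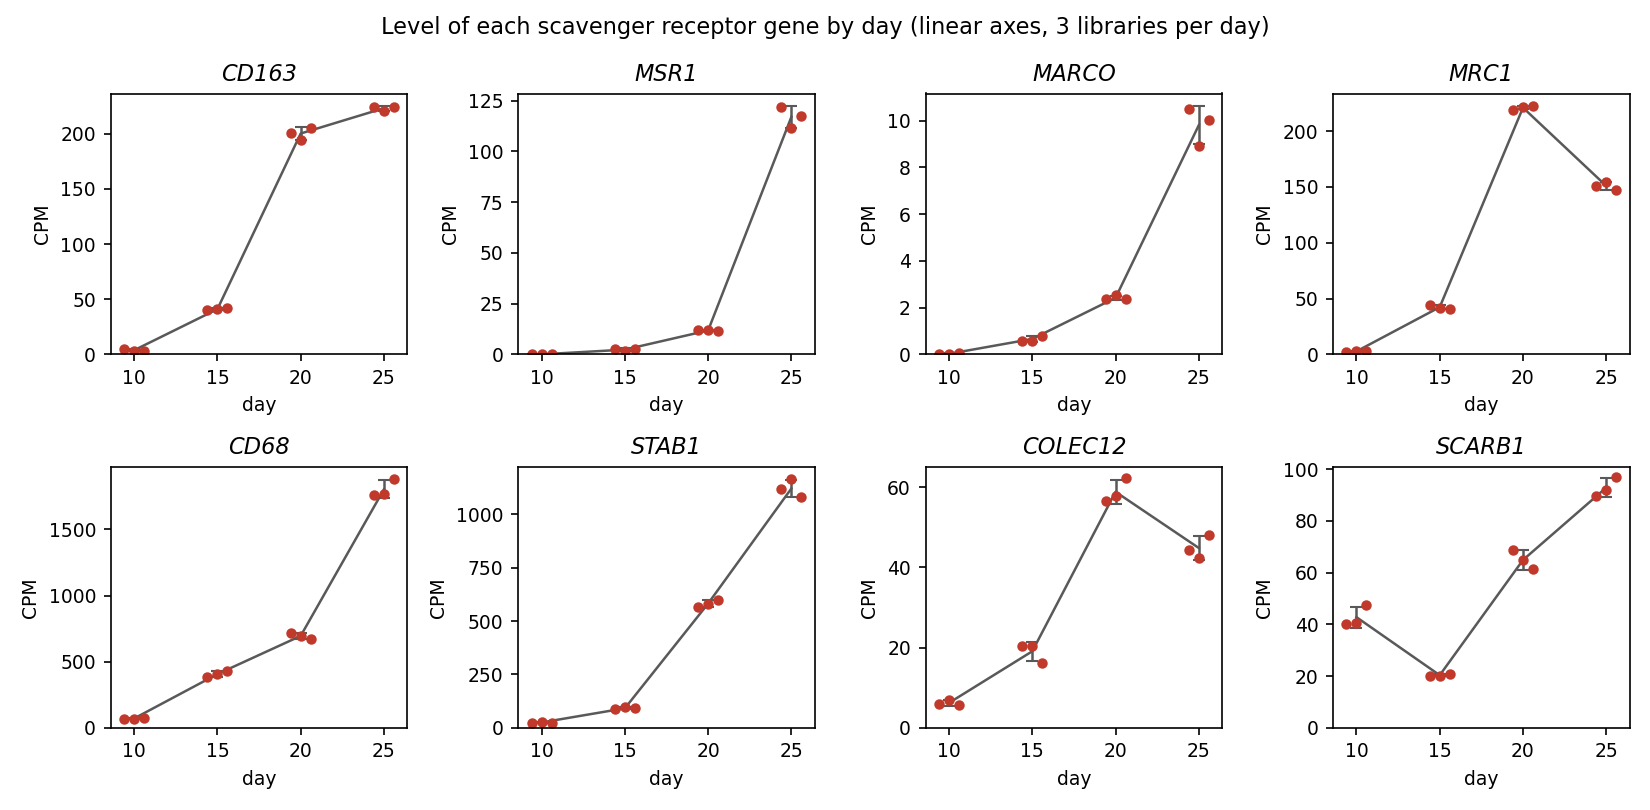
Level of each receptor gene by day in CPM (linear axis from 0, a separate scale for each gene). Points are the 3 libraries of a day, and the line joins the day means with bars of 1 SD. MSR1 stays between 0 and 12.1 CPM up to day 20 and stands at 111 to 122 CPM on day 25, MRC1 and COLEC12 peak at day 20, and SCARB1 dips at day 15.

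Promoter sequence is shown for the receptor genes whose window held the core letters of the binding element of PU.1, the transcription factor encoded by SPI1 and known to bind macrophage genes. The windows are the 250 bases before the RefSeq start, GRCh38.p14, read 5′ to 3′ on the strand of the gene, with the matched letters in capitals. The motif searched was GAGGAA on both strands, so TTCCTC marks a match on the reverse strand. The CD163 window (chr12:7503778-7504027, minus strand) held a reverse match 182 bases before the RefSeq start. The CD68 window (chr17:7579388-7579637, plus strand) held a reverse match 48 bases before it, and the STAB1 window (chr3:52495088-52495337, plus strand) a forward match 83 bases before it. By the GENCODE coordinates given below, CD163 starts at 7503893 and CD68 at 7579467, inside these windows. The CD68 match lies after the GENCODE start of CD68, within the gene as given there.
CD163: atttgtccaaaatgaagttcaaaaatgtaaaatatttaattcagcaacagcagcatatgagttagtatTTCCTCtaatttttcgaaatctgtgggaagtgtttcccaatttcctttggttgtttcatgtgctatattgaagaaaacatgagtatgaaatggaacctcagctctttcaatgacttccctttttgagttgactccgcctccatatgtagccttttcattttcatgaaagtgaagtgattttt
CD68: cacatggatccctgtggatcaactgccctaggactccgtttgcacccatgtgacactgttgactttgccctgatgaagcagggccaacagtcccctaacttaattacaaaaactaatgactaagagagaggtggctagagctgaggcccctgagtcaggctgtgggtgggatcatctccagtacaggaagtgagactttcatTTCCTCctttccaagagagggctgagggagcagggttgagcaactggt
STAB1: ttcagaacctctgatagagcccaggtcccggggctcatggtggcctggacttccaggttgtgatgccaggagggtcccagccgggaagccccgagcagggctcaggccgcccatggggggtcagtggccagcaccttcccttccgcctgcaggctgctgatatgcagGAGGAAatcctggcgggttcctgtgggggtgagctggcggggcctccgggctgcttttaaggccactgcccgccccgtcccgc

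Of all 35116 promoters in the table, 8277 (23.6%) held GAGGAA or its reverse. The table matched 5 of the 8 receptor genes, and the windows of MARCO and COLEC12 did not hold these letters. TGCTGAC, part of the element bound by MAF factors, was in none of the 5 windows and in 1204 (3.43%) of all promoters. A match describes the sequence and is not a measured binding site. MSR1, MRC1 and SCARB1 are named only.

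The class A receptors MSR1 and MARCO started from nothing detectable or nearly so. MSR1 (ENSG00000038945, chromosome 8 from 16107878 to 16567490, minus strand, GRCh38) encodes the macrophage receptor for modified low-density lipoprotein. It had 0 counts in each of the 3 day 10 libraries, then 2.49, 1.69 and 2.77 CPM on day 15, 12.1, 11.8 and 11.4 CPM on day 20, and 122, 111 and 118 CPM on day 25. Every day 25 library lay far above every earlier one. The summed counts of a day were 0, 163, 1191 and 12166.

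Set against the limit of 3 counts over the day 10 libraries (0.0297 CPM), MSR1 was at least 79.2-fold higher at day 15 than at day 10 (edgeR adjusted p = 2.7e-18). The bound was at least 396-fold at day 20 and at least 3920-fold at day 25. MSR1 rose 5.00-fold at day 20 over day 15 (log2 fold change 2.32 ± 0.12 SE, adjusted p = 3.2e-20). At day 25 it rose a further 9.94-fold over day 20 (3.31 ± 0.08, adjusted p = 1.7e-31), the largest step of the 8 genes in that interval. These limits, and the intervals given below for MARCO, use the summed counts of a day. They reflect counting error alone and leave out the spread between libraries. Copies of a molecule made in amplification were not marked, so the counting error itself may be larger.

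MARCO (ENSG00000019169, chromosome 2 from 118942166 to 118994660, plus strand) encodes a receptor for bacteria and inhaled particles, best known from alveolar and marginal-zone macrophages. It had 0, 0 and 0.0675 CPM on day 10, 0.591, 0.580 and 0.804 CPM on day 15, 2.37, 2.52 and 2.36 CPM on day 20, and 10.5, 8.90 and 10.0 CPM on day 25. Its day 10 signal was 2 counts, both in replicate 3. Each later day lay above every library of the day before, with 46, 245 and 1015 summed counts.

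The count ratio of MARCO at day 15 to day 10 was 33.5, with an exact 95% interval of 8.77 to 285 (edgeR adjusted p = 9.8e-09). Its fitted log2 fold change was 4.80, and 7.39 without day 10 replicate 3, which leaves 0 counts at day 10. The ratio was 122 (33.5 to 1014) for day 20 to day 10 and 491 (135 to 4057) for day 25 to day 10. From day 15 on the steps rest on more counts. MARCO rose 3.64-fold at day 20 over day 15 (1.86 ± 0.29, adjusted p = 2.2e-07) and 4.04-fold at day 25 over day 20 (2.02 ± 0.22, adjusted p = 1.2e-10).

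COLEC12 (ENSG00000158270, chromosome 18 from 316740 to 500722, minus strand) encodes a collectin, a class A receptor with a lectin domain that is known mainly from endothelial and stromal cells. It had 6.03, 6.95 and 5.67 CPM on day 10, 20.5, 20.4 and 16.3 CPM on day 15, 56.4, 57.8 and 62.2 CPM on day 20, and 44.3, 42.2 and 48.0 CPM on day 25. Unlike MSR1 and MARCO it was counted in every library and was lower at day 25 than at day 20. It rose 3.04-fold at day 15 over day 10 (1.60 ± 0.10, edgeR adjusted p = 1.8e-18) and 3.09-fold at day 20 over day 15 (1.63 ± 0.08, adjusted p = 1.5e-21). At day 25 it fell 1.31-fold against day 20 (-0.39 ± 0.07, adjusted p = 2e-05). All 3 libraries of day 25 lay under all 3 of day 20.

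CD163 and MRC1 moved together up to day 20 and apart after it. CD163 (ENSG00000177575, chromosome 12 from 7470813 to 7503893, minus strand) encodes the receptor that clears haptoglobin-haemoglobin complexes. It had 4.76, 3.24 and 3.21 CPM on day 10, 39.8, 41.1 and 42.0 CPM on day 15, 200.6, 194 and 205 CPM on day 20, and 224, 221 and 225 CPM on day 25. The largest part of its increase was complete by day 20. It rose 11.0-fold at day 15 over day 10 (3.46 ± 0.08, edgeR adjusted p = 6e-34) and 4.89-fold at day 20 over day 15 (2.29 ± 0.05, adjusted p = 4.7e-34). The last step was 1.11-fold (0.16 ± 0.05, adjusted p = 0.0042), and with library-size scaling it was -0.01 and not called (adjusted p = 0.90).

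MRC1 (ENSG00000260314, chromosome 10 from 17809344 to 17911170, plus strand) encodes the mannose receptor, which takes up mannose-capped glycoproteins and microbes. It had 1.97, 3.39 and 2.67 CPM on day 10, 44.0, 41.8 and 41.0 CPM on day 15, 219, 222 and 222 CPM on day 20, and 150.4, 155 and 148 CPM on day 25. The libraries of day 25 all lay under those of day 20 and above those of day 15. It rose 15.5-fold at day 15 over day 10 (3.95 ± 0.09, edgeR adjusted p = 5.9e-35) and 5.23-fold at day 20 over day 15 (2.39 ± 0.05, adjusted p = 2.2e-34). It then fell 1.46-fold at day 25 against day 20 (-0.55 ± 0.05, adjusted p = 3.1e-13).

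STAB1 (ENSG00000010327, chromosome 3 from 52495338 to 52524495, plus strand) encodes stabilin-1, an endocytic receptor of tissue macrophages and sinusoidal endothelium that clears the matrix protein SPARC. It had 24.2, 26.8 and 24.3 CPM on day 10, 86.7, 95.5 and 92.2 CPM on day 15, 567, 578 and 600.2 CPM on day 20, and 1117, 1164 and 1080.1 CPM on day 25. Each library lay above every library of the day before. Its largest step was day 20 over day 15, at 6.36-fold (2.67 ± 0.04, edgeR adjusted p = 2.7e-41). It rose 3.63-fold at day 15 over day 10 (1.86 ± 0.05, adjusted p = 6.3e-33) and 1.93-fold at day 25 over day 20 (0.95 ± 0.04, adjusted p = 2.1e-25). Over the whole course STAB1 was 44.5-fold higher at day 25 than at day 10.

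CD68 (ENSG00000129226, chromosome 17 from 7579467 to 7582113, plus strand) encodes the lysosomal glycoprotein most used to stain macrophages. It had 68.6, 68.9 and 75.2 CPM on day 10, 387, 404 and 428 CPM on day 15, 714, 696 and 675 CPM on day 20, and 1764, 1765 and 1881 CPM on day 25. The order of its steps depended on the scaling. CD68 rose 5.74-fold at day 15 over day 10 (2.52 ± 0.04, edgeR adjusted p = 2.1e-37), 1.71-fold at day 20 over day 15 (0.77 ± 0.04, adjusted p = 1.5e-21) and 2.59-fold at day 25 over day 20 (1.38 ± 0.04, adjusted p = 3.7e-29). With library-size scaling the log2 steps were 1.99, 1.40 and 1.21, so that the middle one was no longer the smallest. Its exons share 150 bases with an antisense gene on the other strand that held 2931 counts against 293611 for CD68. They share 1789 bases with a transcript on its own strand that is not among the genes counted. The exons of STAB1 share 111 bases with NT5DC2 on the other strand (32691 counts against 185205 for STAB1). Those of CD163 share 38 with the related receptor CD163L1 (5532 counts against 46742 for CD163). Whether counting used strand is not given in the sources used here, so reads in those bases cannot be told apart.

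SCARB1 (ENSG00000073060, chromosome 12 from 124776856 to 124882668, minus strand) encodes the class B receptor that takes cholesteryl esters from high-density lipoprotein, known best from liver and steroid-producing cells. It had 40.3, 40.7 and 47.4 CPM on day 10, 20.0, 20.2 and 20.9 CPM on day 15, 68.7, 64.7 and 61.2 CPM on day 20, and 89.7, 91.8 and 97.0 CPM on day 25. It was the 1 gene of the 8 that fell from day 10 to day 15. At day 15 it was 2.10-fold lower than at day 10 (-1.07 ± 0.07, edgeR adjusted p = 5.9e-18), and -1.60 with library-size scaling. It rose 3.19-fold at day 20 over day 15 (1.67 ± 0.07, adjusted p = 3.3e-25) and 1.43-fold at day 25 over day 20 (0.52 ± 0.06, adjusted p = 3.4e-10). At 2.17-fold, SCARB1 had the smallest difference of the 8 between day 25 and day 10.

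**Figure D2:**
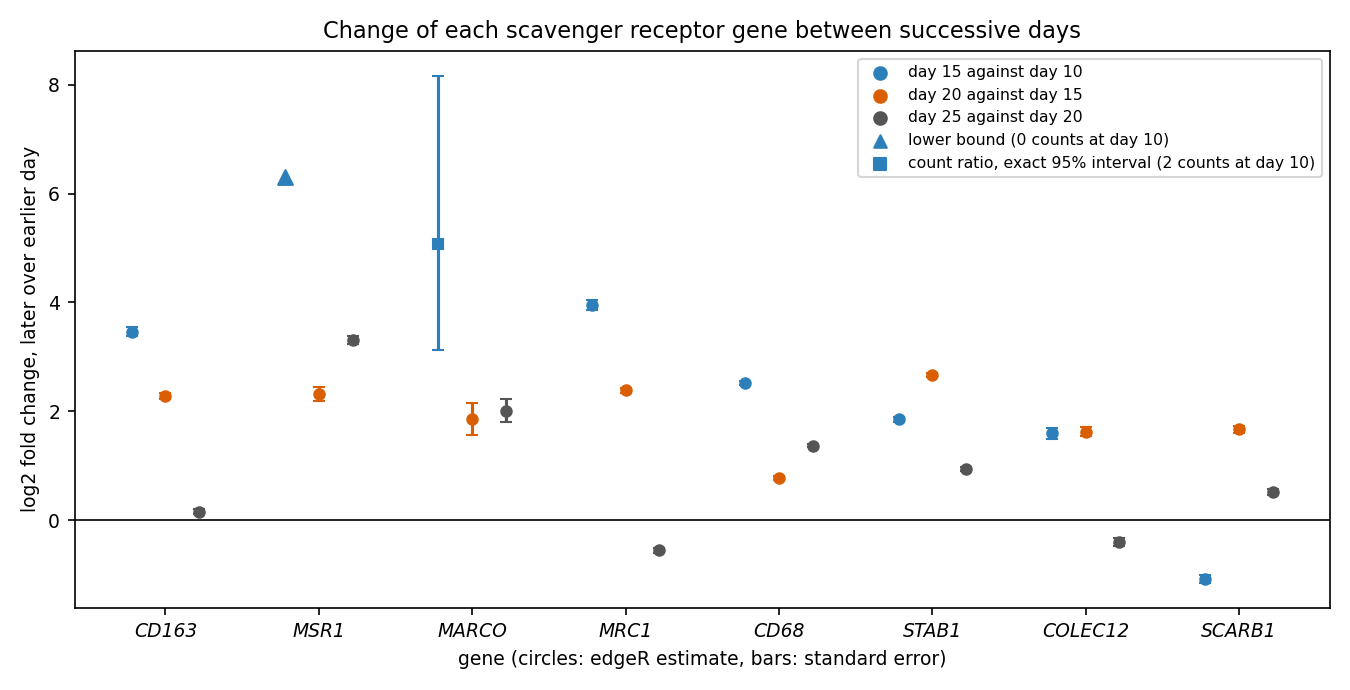
Log2 fold change of each receptor gene between successive days, later over earlier. Circles are edgeR estimates with bars of 1 SE, the triangle is the lower bound of MSR1 against 0 counts at day 10, and the square is the count ratio of MARCO with its exact 95% interval. At day 25 over day 20, MSR1 stands at 3.31, MRC1 and COLEC12 are below 0, and CD163 is at 0.16, which turned to -0.01 with library-size scaling.

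Calls were common in all genes, so the share of called receptors is read against that background. The 8 genes were chosen with earlier results of these data known. Their calls and medians beside all genes are therefore descriptive and carry no test. At day 15 against day 10, 7 receptors rose and SCARB1 fell, where 73.2% of all genes tested were called, 42.4% as higher and 30.8% as lower. At day 20 against day 15 all 8 rose, where 76.6% of all genes were called, 40.6% as higher and 36% as lower. At day 25 against day 20, 6 rose and 2 fell, where 49.7% were called, 24.5% as higher and 25.1% as lower. With a minimum change of 2-fold, MSR1, MARCO and CD68 were called at that last step, all higher, where 6.7% of all genes were called higher and 6.86% lower by that much.

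Over longer intervals all 8 receptors were higher on the later day. At day 25 against day 10, 8 of 8 rose, where 74.5% of all genes were called, 38.6% as higher and 36% as lower. For day 20 against day 10 the background was 70.9% called, 36.7% as higher and 34.2% as lower. For day 25 against day 15 it was 78% called, 40.2% as higher and 37.8% as lower. The median log2 fold change of the 8 was 2.99 at day 15 over day 10, beside 0.20 over all genes tested. It was 2.08 beside 0.10 at day 20 over day 15, 0.73 beside -0.03 at day 25 over day 20, and 5.63 beside 0.02 at day 25 over day 10. Setting MSR1 at its bound did not move the medians against day 10.

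Levels can be set beside each other between genes only per length, here as CPM per kilobase of the union of exons. CD68 was highest on every day, at 32.4 ± 1.72, 186 ± 9.49, 318 ± 9.00 and 824 ± 30.8 CPM per kilobase at days 10, 15, 20 and 25. It held 76.6%, 86.2%, 67.8% and 79.6% of the summed per-kilobase level of the 8 genes. SCARB1 had rank 2 at day 10, with 13.0% of that sum, rank 5 at days 15 and 20 and rank 6 at day 25. From day 15 on STAB1 had rank 2, with 11.7% at day 20 and 10.2% at day 25.

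MSR1 and MARCO were the lowest of the 8 on day 10, and MSR1 ranked above MARCO from day 20 on. By the same per-kilobase level MSR1 had rank 8 at days 10 and 15, rank 7 at day 20 and rank 5 at day 25. MARCO had rank 7 at days 10 and 15 and rank 8 at days 20 and 25. Their order at day 10 rests on 0 counts of MSR1 and 2 of MARCO. At day 15 their levels overlapped, at 0.297 ± 0.0718 for MSR1 and 0.317 ± 0.0607 CPM per kilobase for MARCO (SD, n = 3). The length used for MSR1, 7812 bases, is more than its longest coding transcript, 3572 bases. With the length of the longest coding transcript, a setting chosen after the data were seen, MSR1 stood above MARCO at day 15 and above MRC1 at day 25, and CD163 stood above MRC1 at days 15 and 20.

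As a share of CSF1R in the same library, the receptors parted further. These shares are ratios of CPM without length, so only their change between days is read. CD163 stood at 15.2%, 52.6%, 27.3% and 16.2% of CSF1R at days 10, 15, 20 and 25, and MRC1 at 10.8%, 54.5%, 30.1% and 11.0%. Both were highest relative to CSF1R at day 15, while their CPM was highest at day 25 for CD163 and at day 20 for MRC1. As a share of CD68 both were instead highest at day 20, at 28.8% for CD163 and 31.8% for MRC1. As a share of the summed macrophage markers given below, CD163 stood at 1.63%, 3.60%, 3.38% and 3.22% at days 10, 15, 20 and 25. MRC1 stood at 1.16%, 3.72%, 3.73% and 2.18% of that sum on the same days. The lysozyme gene LYZ, 1 of these markers, averaged 53.2, 787, 3519 and 2443 CPM on the 4 days. The sum averaged 230, 1136, 5922 and 6933 CPM, so at days 15 and 20 these shares rest in large part on LYZ.

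STAB1 stayed between 79.3% and 117% of CSF1R on the 4 days, the narrowest range of the 8 genes as a ratio to CSF1R. As a share of CD68 it ranged more widely, from 22.5% at day 15 to 83.8% at day 20. MSR1 stood at 0%, 2.98%, 1.60% and 8.52% of CSF1R, and was the 1 receptor with its highest share of CSF1R at day 25. MARCO stood at 0.0846%, 0.84%, 0.329% and 0.714% of CSF1R. As a share of the summed macrophage markers, MSR1 (1.69%), MARCO (0.141%) and STAB1 (16.2%) were all highest at day 25. LYZ, a large part of that sum, averaged 3519 CPM at day 20 and 2443 CPM at day 25. As a share of CD68, MSR1 (6.49%) and MARCO (0.544%) were highest at day 25. CD68 was 286%, 521%, 94.7% and 131% of CSF1R. COLEC12, at 25.2%, 24.7%, 8.01% and 3.26%, and SCARB1, at 172%, 26.1%, 8.83% and 6.76%, were lowest at day 25.

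**Figure D3:**
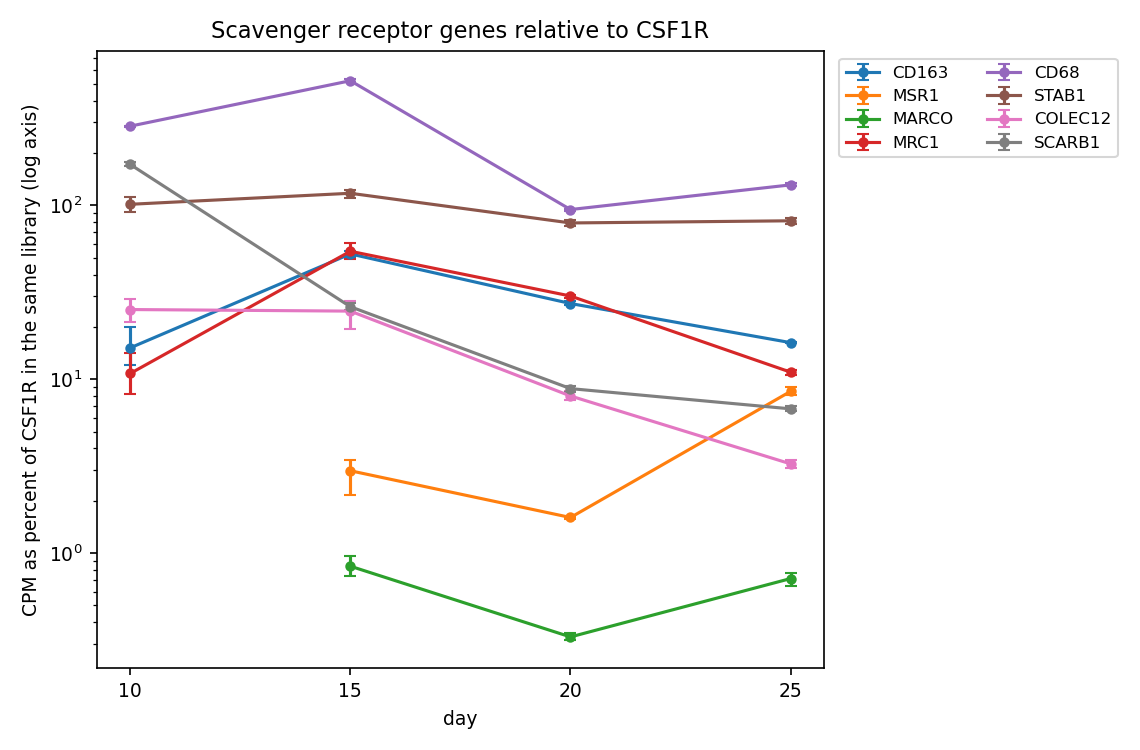
CPM of each receptor gene as a percent of the CPM of CSF1R in the same library (log axis), by day. Points are means of the 3 libraries of a day and bars their range, and MSR1 and MARCO are not drawn at day 10, where CPM was at or near 0. CD163 and MRC1 peak at day 15, MSR1 is highest at day 25, and STAB1 stays between 79.3% and 117%.

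Patterns were also compared with those of other genes by the root mean square difference of centred log2 CPM over the 12 libraries, where 0 is an identical pattern. Among the receptors themselves CD163 and MRC1 were most alike, at 0.42, followed by CD163 and STAB1 at 0.65 and MARCO and STAB1 at 0.67. Closest to CD163 over all genes was CSF3R (0.13), the receptor for granulocyte colony-stimulating factor, which averaged 7.83, 97.1, 457 and 494 CPM on the 4 days. Closest to MRC1 were CSF2RA (0.19), the GM-CSF receptor α chain, the lysozyme gene LYZ (0.21) and CLEC5A (0.23). Closest to STAB1 were the sorting receptor gene SORL1 (0.13), S100B (0.14) and LRP1 (0.19), itself an endocytic receptor.

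MSR1 had the least close neighbours, with the fatty acid binding protein gene FABP4 at 0.43, the gluconeogenic enzyme gene FBP1 at 0.51 and FCMR at 0.58. FABP4 averaged 0.0167, 2.49, 20.6 and 169 CPM on the 4 days. MARCO was nearest to RAB7B (0.24), RGS1 (0.36) and DPYD (0.36), and CD68 to SLC28A3 (0.19), P2RX4 (0.21) and PLXNC1 (0.24). COLEC12 was nearest to RAB27A (0.15), the proteoglycan gene VCAN (0.15) and ANXA6 (0.17). SCARB1 was nearest to ZNF589 (0.11), GATM (0.12) and the membrane protease gene MMP14 (0.12). These are descriptions over libraries that share days, and carry no test.

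Other scavenger and uptake receptors were taken from a list of 22 genes, of which SCARA5 did not pass the filter. At day 15 against day 10, 15 of the 21 tested rose, 2 fell and 4 were not called. The oxidised lipoprotein receptor gene OLR1 rose 103-fold to 22.7 ± 1.89 CPM, against 0.219 ± 0.0303 CPM on day 10, CXCL16, a membrane chemokine that binds oxidised lipid, rose 73.8-fold, and the IgG receptor gene FCGR1A rose 39.4-fold. Day 20 against day 15 had 16 higher, 2 lower and 3 not called, with CD209 (58.2-fold) and CLEC10A (13.8-fold), both C-type lectins, and the apoptotic cell receptor gene MERTK (7.88-fold) leading. At day 25 against day 20, 10 rose, 1 fell and 10 were not called. LY75, a relative of MRC1, rose 3.01-fold, SCARB2, the lysosomal relative of SCARB1, 2.86-fold, and CXCL16 2.82-fold.

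Haemoglobin, haem and iron genes, which handle the cargo of CD163, were counted from a list of 12. At day 15 against day 10, 9 rose and 3 fell. HMOX1, the haem-degrading enzyme gene, averaged 70.2 ± 3.87 CPM on day 15 and 1.46 ± 0.158 CPM on day 10 (47.7-fold), the haptoglobin gene HP rose 28.4-fold and the phagosomal metal transporter gene SLC11A1 9.15-fold. At day 20 against day 15, 8 rose and 4 fell, and at day 25 against day 20, 9 rose and 3 fell. SLC40A1, the iron exporter ferroportin, averaged 228, 1386, 190 and 62.8 CPM at days 10, 15, 20 and 25. After its rise at day 15 it fell 7.28-fold at day 20 and 3.03-fold more at day 25. The haem and lipoprotein receptor gene LRP1 rose 6.65-fold at day 20 and 2.46-fold more at day 25, to 1585 ± 90.3 CPM.

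Lipoprotein and lysosomal lipid genes, which act on what MSR1, SCARB1 and their relatives take up, were counted from a list of 16. At day 15 against day 10, 12 rose and 4 fell, among them the lipid droplet gene PLIN2, which rose 5.50-fold, and the cholesterol exporter gene ABCA1, which rose 2.72-fold. Between day 20 and day 15, 13 rose, 2 fell and 1 was not called, led by the apolipoprotein genes APOE (34.0-fold) and APOC1 (27.8-fold) and the exporter gene ABCG1 (14.7-fold). Day 25 against day 20 had 10 higher, 4 lower and 2 not called. In that interval FABP4 rose 8.18-fold, the lipoprotein lipase gene LPL 5.51-fold and the lysosomal acid lipase gene LIPA 4.29-fold, to 3202 ± 67.6 CPM. MSR1 rose 9.94-fold in the same interval, as given above.

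Transcription factor genes of macrophages were counted from a list of 16. At day 15 against day 10, 15 rose and 1 fell, with KLF4 24.2-fold, the lipid-sensing nuclear receptor gene PPARG 10.6-fold and MITF 9.75-fold higher. Day 20 had 13 higher and 3 lower than day 15, with MAF 8.85-fold, IRF8 7.37-fold and CEBPA 5.57-fold higher. Day 25 had 12 higher and 1 lower than day 20, and 3 were not called. The oxysterol receptor gene NR1H3 rose 2.47-fold, PPARG 2.42-fold and the lysosomal regulator gene TFEB 2.22-fold there.

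Growth factor and cytokine receptor genes of macrophages came from a list of 10. Of these 9 rose and 1 was not called at day 15 against day 10, with CSF2RA 14.6-fold, IL10RA 6.73-fold and CSF2RB 6.61-fold higher. At day 20 against day 15, 9 rose and 1 fell, with CSF1R 9.41-fold, IL6R 4.94-fold and IL10RA 4.89-fold higher. The last step had 8 higher, 1 lower and 1 not called, with IL13RA1 2.17-fold, CSF1R 1.87-fold and IL4R 1.84-fold higher.

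Genes of receptor shedding and endocytosis, which release receptors from the surface or take them into the cell, were a list of 12. At day 15 against day 10, 8 rose and 4 fell, with the membrane coat gene CAV1 11.5-fold, the adaptor gene DAB2 7.56-fold and RHBDF2, a partner of the sheddase ADAM17, 4.22-fold higher. At day 20 against day 15, 2 rose and 10 fell. DAB2 fell 7.08-fold and TIMP3, the inhibitor of ADAM17, 5.01-fold. With library-size scaling the same step had 6 of the 12 higher and 4 lower. At day 25 against day 20, 8 rose, 2 fell and 2 were not called, with CAV1 2.53-fold and GULP1 2.06-fold lower and RHBDF2 2.05-fold higher.

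**Figure D4:**
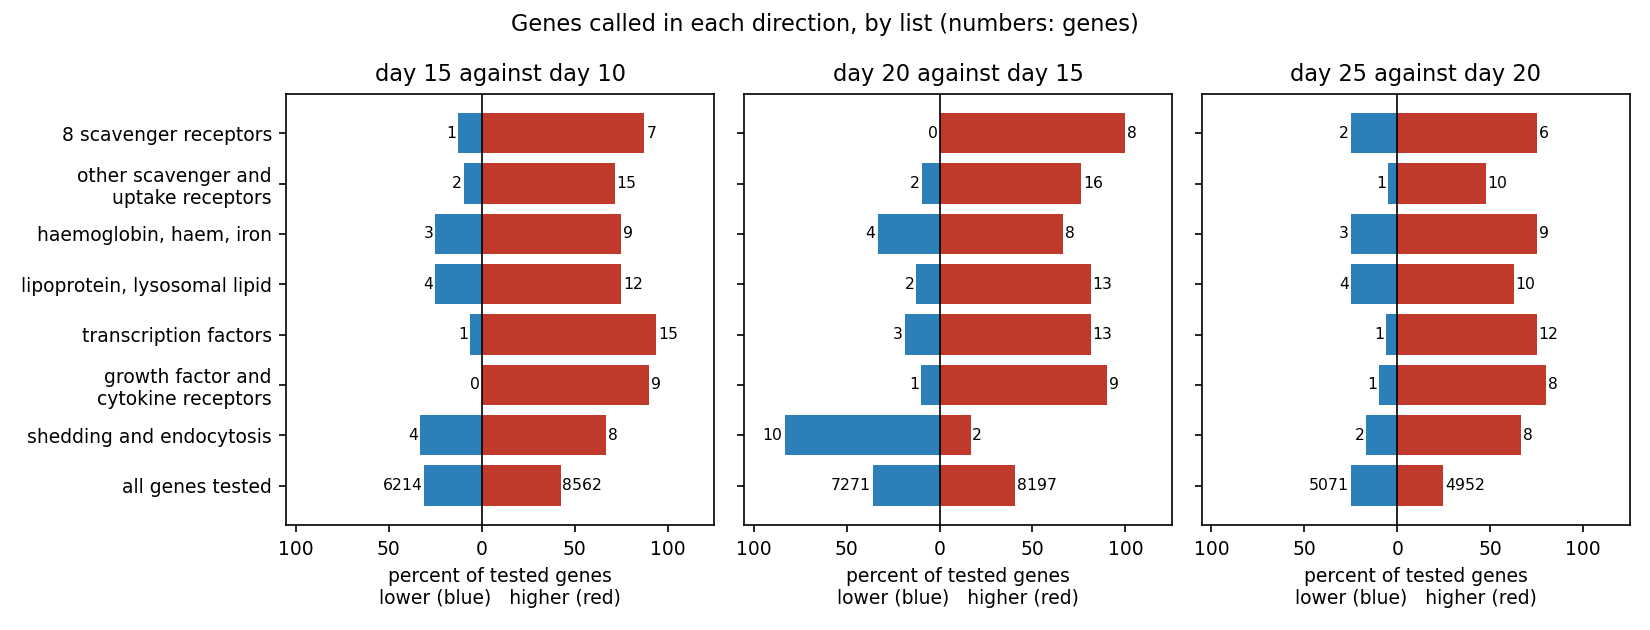
Percent of tested genes called higher (red, right) or lower (blue, left) in each list and in all genes tested, for the 3 successive steps, with the number of genes at each bar. The 8 receptors are 7 higher and 1 lower, 8 and 0, and 6 and 2, and shedding and endocytosis genes are 2 higher and 10 lower at day 20 against day 15, a split that was 6 and 4 with library-size scaling.

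Markers of other cell types also moved between the days, and their part in the receptor values was not tested. The summed level of 14 macrophage markers, none of them among the 8 receptors but with CSF1R, MERTK and FCGR1A also in lists above, lay at 227 to 235 CPM on day 10, 1108 to 1164 at day 15, 5802 to 5991 at day 20 and 6840 to 7017 at day 25. CD14, the lipopolysaccharide co-receptor, averaged 0.0167 ± 0.029, 22.1 ± 1.74, 204 ± 4.53 and 425 ± 5.19 CPM on those days. LYZ, also in this list, averaged 53.2, 787, 3519 and 2443 CPM. The sum of 12 endothelial markers lay at 1557 to 1611, 3676 to 3756, 465 to 468 and 349 to 363 CPM. KDR, a vascular receptor, made up 1954 ± 25.7 CPM of it at day 15, while CDH5, which defines endothelial junctions, averaged 38.8 ± 0.737, 7.23 ± 1.33, 1.84 ± 0.408 and 3.03 ± 0.186 CPM.

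The sum of 10 stromal markers lay at 1238 to 1263, 1780 to 1857, 7153 to 7274 and 4947 to 5038 CPM. It was highest at day 20, as were MRC1, COLEC12 and the granulocyte and T-cell sums given below. COL1A1, a fibrillar collagen gene, averaged 259.9 ± 4.14, 518 ± 20.3, 1049 ± 22.2 and 1278 ± 11.0 CPM. The sum of 10 liver and yolk sac markers was also highest at day 20, with 27.4 to 27.9, 122 to 127, 936 to 953 and 294 to 297 CPM, and APOA1 averaged 2.44 ± 0.509, 2.17 ± 0.604, 25.7 ± 1.97 and 9.64 ± 0.503 CPM. Granulocyte markers, 10 genes, summed to 550 to 560, 12443 to 13298, 21592 to 21994 and 7702 to 7874 CPM. Progenitor markers, 8 genes, stayed between 398 and 510 CPM on all days, although CD34 averaged 1.10 ± 0.275 CPM on day 25 and 20.6 ± 1.79 CPM on day 10.

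The 10 T-cell markers summed to 2.35 to 3.14 CPM on day 10, 18.7 to 24.6 at day 15, 26.6 to 29.5 at day 20 and 10.7 to 12.9 at day 25. CD3D, CD3G, TRAC and LCK did not pass the filter on low counts. At days 10, 15 and 25, 2 of the 10 were at 0 in every library, and at day 20 none were. MSR1 alone averaged 117 ± 5.41 CPM and CD68 1804 ± 67.5 CPM in the day 25 libraries, which are labelled mature γδ T cells.

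**Figure D5:**
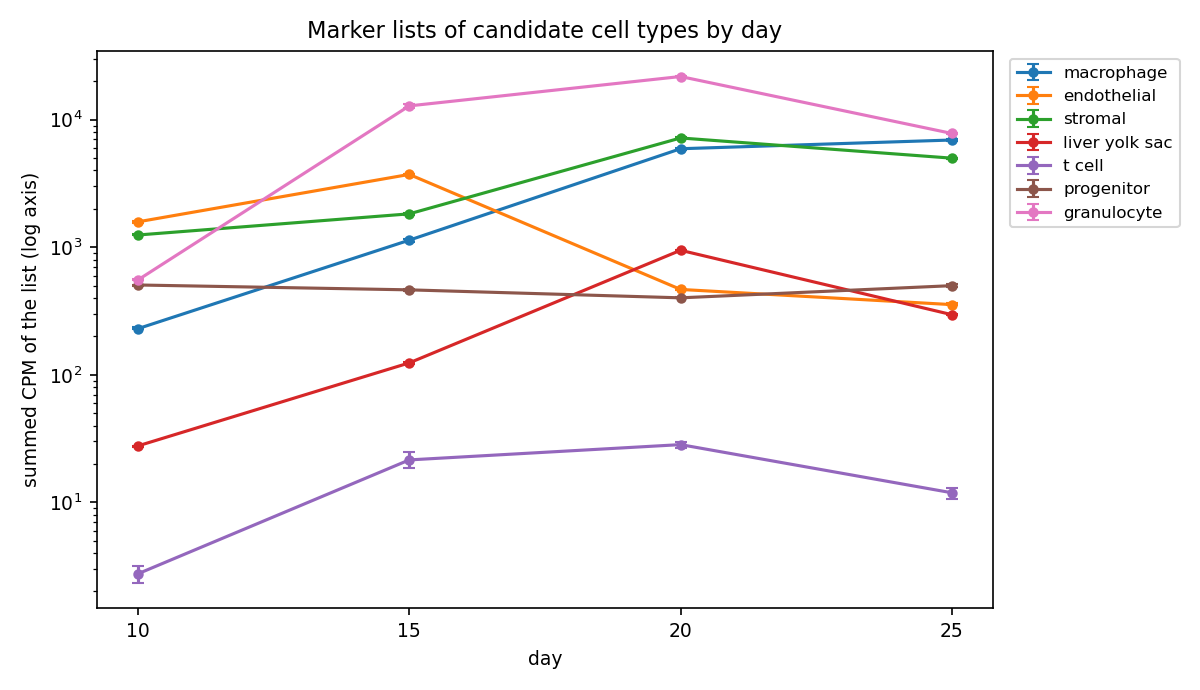
Summed CPM of marker lists of 7 cell types by day (log axis). Points are means of the 3 libraries of a day and bars their range. At day 25 the macrophage list lies at 6840 to 7017 CPM and the T-cell list at 10.7 to 12.9 CPM. The stromal, the liver and yolk sac, the granulocyte and the T-cell lists are highest at day 20.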

How the data were processed

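Total RNA was turned into libraries by LM-Seq (ligation-mediated sequencing) and read from a single end, per the labels' protocols. The authors deposited unnormalised counts of reads for each gene in each library, per the file headers. Per the submitters' processing notes the build was GRCh38. The sources used here do not give the aligner, the counter, the annotation or the use of strand.

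Of 36601 Ensembl identifiers, 36366 matched a symbol. No column of values was left unused. The 8 receptor genes and all lists were chosen with earlier results of these data known. Coordinates are from GENCODE release 29.

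Counts were analysed with edgeR 4.0.16 in R 4.3.3. The filter was filterByExpr (minimum count 10), libraries were scaled by TMM (factors 0.753 to 1.17), and the 12 libraries entered a single robust quasi-likelihood fit without covariates (biological coefficient of variation 6.03%). The 6 pairs of days and a joint test were adjusted by Benjamini-Hochberg over 20183 genes. An SE is the log2 fold change divided by the root of the F statistic. Folds against 0 counts used a limit of 3 counts over the libraries of a day, and MARCO ratios an exact conditional interval. Centred log2 CPM used a prior count of 2. The fit was checked on simulated counts in which few genes changed. That check does not cover the scaling where most genes differ, as in these data.

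Named beside the 8 receptors were CSF1R, CD14, CD3E, CD34, CDH5, COL1A1 and APOA1, up to 3 called genes of each list and comparison with the largest change and at least 1 CPM, and the 3 genes closest to each receptor with at least 10 CPM. The FABP4 fold at day 15 over day 10 was left out, as its day 10 counts were near 0. A gene that the rule took is not reported here.

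Alternatives were scaling by DESeq2 size factors, by library size, or without mitochondrial, haemoglobin and ribosomal protein genes. The filter was dropped or made stricter, and DESeq2 1.42.0 and limma-voom (limma 3.58.1) took the place of edgeR. A replicate block was added, only the days compared were fitted, calls needed an adjusted p under 0.01 or a 2-fold change, and each library was left out in turn.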

Additional observations from a re-analysis of the deposited data

How the results depend on the processing

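Each of the 8 receptors was called in each of the 6 comparisons under every alternative that kept the threshold at an adjusted p of 0.05 or 0.01, with 1 exception. The log2 fold change of CD163 at day 25 over day 20 was -0.00772 with library-size scaling (adjusted p = 0.90), which left 7 receptors called, and 0.14 to 0.18 over the fits that left out a library. With a 2-fold minimum, 3 receptors were called at day 25 against day 20 in place of 8, and CD68 at day 20 over day 15 (log2 fold change 0.77) and SCARB1 at day 20 over day 10 (0.60) also lost their calls. Library-size scaling put the log2 fold changes of the 8 receptors at day 20 over day 15 between 1.40 and 3.29, in place of 0.77 to 2.67. Leaving out any library kept 8 called in each comparison. Library-size scaling moved the median log2 fold change of all genes from the values given above to -0.32 at day 15 over day 10, 0.73 at day 20 over day 15, -0.19 at day 25 over day 20 and 0.52 at day 25 over day 15. The share of calls that were higher then was 39.2% in place of 57.9%, 72.1% in place of 53.0%, 31.4% in place of 49.4% and 66.6% in place of 51.6% in these comparisons. No pairing by replicate number was visible. Deviations of libraries with the same number correlated between -0.0796 and 0.0509, and those with different numbers between -0.0724 and 0.0492. With 3 libraries a day, a weak pairing could go unseen. With a replicate block 8 receptors stayed called in each comparison, and the count over all genes was 14592 in place of 14776 at day 15, 15301 in place of 15468 at day 20 and 9760 in place of 10023 at day 25, each against the day before. Depth limits MARCO and MSR1 at day 10, where 2 and 0 counts allow only a ratio with a wide interval and a bound.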
